A study of Mus musculus with 12 samples.

Results

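The 36 genes described here belong to the ATF4 pathway and to the unfolded protein response of the endoplasmic reticulum (ER). They were taken by symbol from a list of genes of these pathways, out of 17576 genes in the table of expression values, and fall into 22 amino acid response genes and 14 ER genes. All 36 passed the filter on low values, which 11435 genes of the table passed. RNA was sequenced from C18-4 cells, an immortalized line that the study uses as a model of mouse spermatogonial stem cells. There were 4 groups of stably transfected cells with 3 libraries each. The 3NC group carried the LV3 lentiviral vector with a control shRNA, and the knockdown group (KD) carried LV3 with a mixture of 3 shRNAs against lncRNA5251. The 5NC group carried the LV5 vector without an insert, and the overexpression group (OV) carried LV5 with the full-length lncRNA5251. All groups thus carried a vector, each control matched 1 arm only, and cells without a vector were not analysed here. The comparisons ask how these stress response genes differ between each lncRNA5251 construct and its vector control, and how far the vector controls themselves differ.

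ATF4 is a transcription factor whose mRNA is translated better when the initiation factor eIF2alpha is phosphorylated by the kinases GCN2, PERK, HRI or PKR, which sense amino acid shortage, unfolded proteins in the ER, loss of heme or mitochondrial function, and double-stranded RNA. It raises genes for amino acid synthesis and uptake, tRNA charging, and the feedback phosphatase subunit GADD34, encoded by Ppp1r15a. The unfolded protein response has further arms, ATF6 and IRE1 with its target XBP1, which raise chaperones and folding enzymes of the ER. Translation of Atf4 and splicing of Xbp1 are not visible in gene-level RNA values, so the levels below are mRNA levels only.

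The DNA elements through which these arms are known to act were looked for in the RefSeq promoters of GRCm38.p6, from 250 bases before to 50 bases after the gene start, on both strands. A promoter was found for 33 of the 36 members, and Slc7a5, Hyou1 and Manf had no entry. The C/EBP-ATF response element (CARE), searched as TGATGNAA, was present in 7 of 21 amino acid response promoters and in 1 of 12 ER promoters (Herpud1), against 3.97% of all 32851 promoters and 4.51% of their genes. The ER stress response element (ERSE), searched as CCAAT and CCACG with 9 free bases between them, was present in 6 of 12 ER promoters and in 0 of 21 amino acid response promoters, against 0.119% of all promoters and 0.137% of genes. ERSE-II, searched as ATTGG and CCACG with 1 free base between them, was present in the promoter of Herpud1 alone among the members and in 0.0365% of all promoters (0.0444% of genes). The UPR element, searched as TGACGTGG, was in 0 member promoters and in 0.676% of all promoters (0.714% of genes). The windows of 28 bases below hold every match in a member and are shown because they let the element be compared between members. They are read 5′ to 3′ on the strand of the gene, with the element in capitals, and an element on the opposite strand appears as its reverse complement. A match is a description of the sequence and was not tested for binding.
CARE in Fgf21 (chr7:45615612-45615639, minus strand): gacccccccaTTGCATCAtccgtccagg
CARE in Chac1 (chr2:119351039-119351066, plus strand): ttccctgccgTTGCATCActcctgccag
CARE in Nupr1 (chr7:126625563-126625590, minus strand): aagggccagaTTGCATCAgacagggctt
CARE in Trib3 (chr2:152344029-152344056, minus strand): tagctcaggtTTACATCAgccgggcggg
CARE in Slc7a11 (chr3:50443662-50443689, minus strand): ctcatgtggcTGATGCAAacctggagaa
CARE in Slc7a11 (chr3:50443643-50443670, minus strand): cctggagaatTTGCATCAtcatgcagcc
CARE in Asns (chr6:7693215-7693242, minus strand): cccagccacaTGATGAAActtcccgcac
CARE in Vldlr (chr19:27216810-27216837, plus strand): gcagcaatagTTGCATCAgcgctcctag
CARE in Herpud1 (chr8:94386307-94386334, plus strand): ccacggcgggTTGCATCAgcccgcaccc
ERSE-II in Herpud1 (chr8:94386369-94386396, plus strand): gggcgctgATTGGGCCACGttggacact
ERSE in Hspa5 (chr2:34772021-34772048, plus strand): ttcaCCAATCGGAGGCCTCCACGacggg
ERSE in Creld2 (chr15:88819516-88819543, plus strand): ttctCGTGGCGAGCCTCAATTGGtccac
ERSE in Calr (chr8:84847070-84847097, minus strand): aacgCGTGGTCGACCCTCATTGGcccat
ERSE in Hsp90b1 (chr10:86705633-86705660, minus strand): aagcCCAATCGCAAGGAGCCACGcttcg
ERSE in Hsp90b1 (chr10:86705528-86705555, minus strand): agtgCGTGGTGAGGCACGATTGGtgagt
ERSE in Pdia6 (chr12:17266487-17266514, plus strand): gagaCCAATGAAAGGCGGCCACGgcgtg
ERSE in Dnajc3 (chr14:118937823-118937850, plus strand): acaaCCAATCAGCGCCAACCACGacccg

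Values are RPKM as deposited, that is, reads divided by gene length and by library size. Fold changes are differences of log2(RPKM + 1), a scale that understates the change of low genes. A gene rose or fell where limma, fitted to all 12 libraries, gave a p of at most 0.05 after Benjamini-Hochberg adjustment over the 11435 genes. Every adjusted p below is from that fit, except where another setting or a left-out library is named. The stricter threshold that the study used for its own test, an adjusted p of at most 0.001 and a log2 fold change of 1 or more in either direction, is counted beside it. Library totals ran from 533099 to 580920 RPKM, the relative depth read from 26 low genes was between 0.951 and 1.02, and Spearman's correlation within groups was between 0.992 and 0.998. Nothing in the labels says that replicates came from separate cultures, so p-values measure the spread between libraries, which may be technical, and an exact permutation test of 3 against 3 libraries cannot go below 0.1. LncRNA5251 itself was not analysed here. The 3 knockdown sequences matched transcripts of Purb only, and Purb was at 8.79 to 10.25 RPKM in KD and at 32.92 to 34.11 RPKM in 3NC. In OV it was at 23.94 to 33.25 RPKM against 29.18 to 32.09 RPKM in 5NC (log2 fold change -0.19, adjusted p = 0.176), so the level of the matched gene did not pass the test in OV and was not above the control in its mean.

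The spermatogonial label was checked against 12 markers. Ret, Nanos2, Kit and Pou5f1 were at 0 in every library. Gfra1 was at or below 0.17 RPKM, Ddx4 at or below 0.07, Zbtb16 and Dazl at or below 0.04, and Lin28a and Bcl6b at or below 0.02. Only Uchl1, at 60.06 to 122.73 RPKM, and Id4, at 0.83 to 1.82 RPKM, passed the filter. Most of the list was thus at or near 0, and the marker values did not bear out the label. The summed level of the list was 74.67 to 83.59 RPKM in 3NC, 61.18 to 69.53 in KD, 90.57 to 94.64 in 5NC and 106.43 to 124.35 in OV. The sum of 7 fibroblast and peritubular markers was 801.2 to 843.91 RPKM in 3NC, 900.28 to 995.33 in KD, 1036.76 to 1079.9 in 5NC and 1108.55 to 1196.91 in OV. Most of that sum is Vim and Col1a1, and single genes of the list moved further, Dcn from 20.85 to 22.24 RPKM in 3NC to 34.42 to 38.07 in KD, 108.93 to 114.99 in 5NC and 105.02 to 111.68 in OV, and Acta2 from 8.16 to 9.1 RPKM in 3NC to 17.31 to 20.18 in KD, 19.51 to 23.1 in 5NC and 12.7 to 14.73 in OV. Both genes rose in 5NC against 3NC, with log2 fold changes of 2.32 and 1.22, and in KD against 3NC, with 0.71 and 1.04, and Acta2 fell in OV against 5NC by 0.60. In 5NC against 3NC, 3 of the 5 tested genes of the list rose and 1 fell (Pdgfra, -0.31). Over all genes tested 31% rose and 25.6% fell there. In KD against 3NC 3 of the 5 rose and 0 fell, where 31.9% of all genes tested rose and 23.5% fell. Vim did not pass the test in either comparison. Of the other lists, Sertoli markers were carried by Wt1 and Gata4 at a sum of 54.66 to 63.5 RPKM, and the sums of macrophage and Leydig markers stayed at or below 5.67 and 2.39 RPKM. The part of these marker differences in the results below was not tested, and in bulk RNA fewer cells of a type and less RNA per cell cannot be told apart.

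The amino acid response genes and the ER genes ordered the 4 groups differently. Together the 22 amino acid response members made up 0.379 to 0.387% of all RPKM in 3NC, 0.314 to 0.329% in KD, 0.601 to 0.610% in 5NC and 0.569 to 0.582% in OV. The 14 ER members made up 0.778 to 0.795% in 3NC, 0.806 to 0.820% in KD, 0.614 to 0.626% in 5NC and 0.783 to 0.856% in OV. The ranges of the amino acid response genes overlapped between no pair of groups, and both LV5 groups lay above both LV3 groups. For the ER genes the 5NC group alone lay below the rest. By group means, 17 of 22 amino acid response members were lowest in KD, and they were highest in OV (14 members) or 5NC (8 members). In contrast, 11 of 14 ER members were lowest in 5NC, and 0 were highest there. Orders of the group means were not counted over all genes tested, so these counts have no share beside them.

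**Figure D1:**
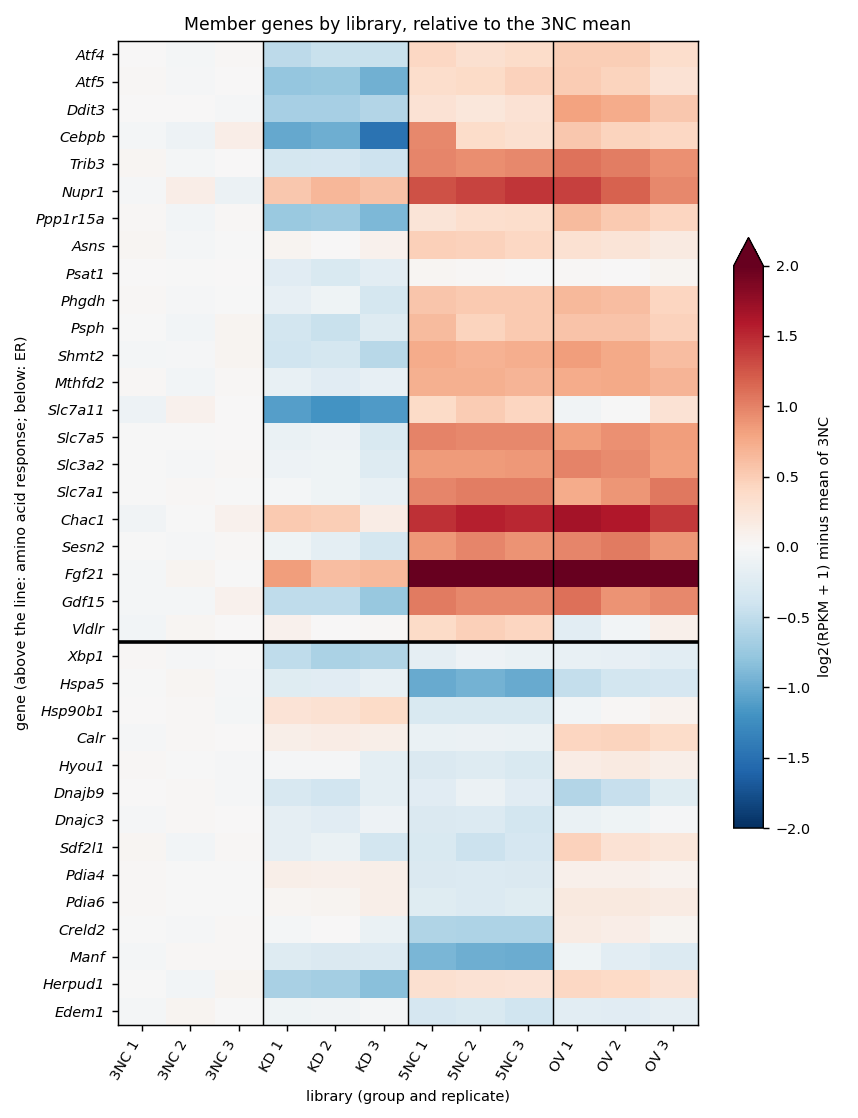
Each row is 1 member and each column 1 library, coloured by log2(RPKM + 1) minus the mean of the 3NC libraries, with colours capped at 2 in either direction (Fgf21 lies past the cap in 5NC and OV). Amino acid response genes are mostly blue in KD and red in 5NC and OV, while 11 of the 14 ER genes have their lowest mean in 5NC, which was not counted over all genes. The direction of Calr in 5NC against 3NC, a log2 fold change of -0.12, turned to 0.0082 under quantile normalization.

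Most of the amino acid response genes were lower in the knockdown cells. In KD against 3NC, 16 of 22 amino acid response genes fell and 3 rose, where 23.5% of all genes tested fell and 31.9% rose. Of 14 ER genes 7 fell and 3 rose. The median log2 fold change was -0.23 over the amino acid response genes, -0.12 over the ER genes and 0.04 over all genes tested. In 17 amino acid response genes the KD libraries were all below the 3NC libraries, as in 27.1% of all genes, and in 3 they were all above, as in 35.7%. Among ER genes these numbers were 8 below and 4 above. Cebpb and Slc7a11 passed the stricter threshold, which 1.08% of all genes passed downwards and 0.498% upwards.

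Of the 7 transcription factors and regulators 6 fell in KD and Nupr1 rose. Atf4 was at 354.26, 344.15 and 360.46 RPKM in 3NC and at 245.34, 258.7 and 259.01 RPKM in KD. Its KD libraries lay close together and all below 3NC, with a log2 fold change of -0.47 (standard error 0.05, adjusted p = 9.3e-07). Atf5, which encodes the closest relative of ATF4, was at 96.63, 93.27 and 95.91 RPKM in 3NC and at 55.2, 56.02 and 48.25 RPKM in KD (log2 fold change -0.83, adjusted p = 4.72e-08). Ddit3, which encodes the stress factor CHOP, was at 88.43, 88.41 and 86.03 RPKM in 3NC and at 54.79, 55.2 and 58.2 RPKM in KD (log2 fold change -0.64, adjusted p = 3.09e-07). In both genes the KD libraries were well below all 3NC libraries. Cebpb, whose product C/EBP beta is a partner of ATF4 and CHOP, was at 40.1, 38.1 and 45.26 RPKM in 3NC and at 19.69, 20.36 and 14.14 RPKM in KD. All KD libraries lay below 3NC, a log2 fold change of -1.16 (standard error 0.14, adjusted p = 8.65e-06), with KD replicate 3 the lowest library. Ppp1r15a was at 60.87, 57.95 and 61.15 RPKM in 3NC and at 35.39, 36.05 and 31.87 RPKM in KD (log2 fold change -0.78, adjusted p = 4.2e-08). Trib3, a pseudokinase that restrains ATF4 and CHOP, fell from 66.07, 61.98 and 64.1 RPKM in 3NC to 49.99, 50.4 and 47.66 RPKM in KD (log2 fold change -0.37, adjusted p = 1.45e-05).

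Nupr1, Chac1 and Fgf21 were the 3 amino acid response genes that rose in KD, and all are among the 7 with a CARE in the promoter window. Nupr1, which encodes a small stress-induced chromatin protein, was at 78.19, 86.83 and 73.18 RPKM in 3NC and at 115.23, 125.65 and 119.47 RPKM in KD (log2 fold change 0.59, adjusted p = 2.57e-05). Chac1, which encodes an enzyme that degrades glutathione, was at 38.48, 40.19 and 43.09 RPKM in 3NC and at 58.54, 57.18 and 44.83 RPKM in KD (log2 fold change 0.38, adjusted p = 0.00155). KD replicate 3 of Chac1 was just above the highest 3NC library. Fgf21, a secreted hormone of fasting and stress, was at 8.76, 9.5 and 8.98 RPKM in 3NC and at 16.93, 14.42 and 14.78 RPKM in KD, without overlap (log2 fold change 0.70, standard error 0.06, adjusted p = 2.84e-07). The 7 members with a CARE had a median log2 fold change of 0.05, with 3 higher and 2 lower. The 14 members whose window held none had a median of -0.40, with 0 higher and 13 lower. Over all genes tested 31.9% were higher and 23.5% lower, near the shares of the 7 members.

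Of the 4 amino acid transporters 3 fell, and of the 6 amino acid and one-carbon enzymes 5 fell. Slc7a11, which encodes the cystine transporter xCT, was at 5.64, 6.55 and 6.16 RPKM in 3NC and at 2.3, 2.1 and 2.24 RPKM in KD, well separated (log2 fold change -1.15, standard error 0.09, adjusted p = 5.97e-08). Slc7a5, the large neutral amino acid transporter LAT1, was at 75.68, 76.05 and 76.89 RPKM in 3NC and at 69.76, 70.95 and 61.8 RPKM in KD (log2 fold change -0.17, adjusted p = 0.00739). Slc3a2, the heavy chain shared by xCT and LAT1, had a log2 fold change of -0.14 (adjusted p = 0.0324). The cationic amino acid transporter Slc7a1 did not pass the test, at 42.93, 43.96 and 43.27 RPKM in 3NC and at 42.31, 40.62 and 39 RPKM in KD (adjusted p = 0.221). The 3 enzymes of serine synthesis fell, with log2 fold changes of -0.20 for Phgdh, -0.24 for Psat1 and -0.35 for Psph. The mitochondrial folate enzymes fell as well, Mthfd2 by 0.18 and Shmt2 by 0.44 on the log2 scale, the latter from 108.56, 109.56 and 115.42 RPKM in 3NC to 83.78, 86.58 and 75.27 RPKM in KD. Asparagine synthetase (Asns) did not pass the test (log2 fold change 0.05, adjusted p = 0.35). Sesn2, a leucine sensor upstream of mTORC1, was at 8.65, 8.54 and 8.81 RPKM in 3NC and at 8.1, 7.41 and 6.57 RPKM in KD (log2 fold change -0.21, adjusted p = 0.0159). Gdf15, a secreted hormone that acts on appetite, was at 39.44, 39.57 and 43.03 RPKM in 3NC and at 28.25, 28.37 and 23.76 RPKM in KD, all lower (log2 fold change -0.59, adjusted p = 3.56e-06). Vldlr, a lipoprotein receptor, was at 14.09, 15.09 and 14.66 RPKM in 3NC and at 15.55, 14.75 and 14.79 RPKM in KD, which overlap (adjusted p = 0.662). Without KD replicate 3 the calls of Slc3a2 (adjusted p = 0.141), Phgdh (0.081) and Sesn2 (0.0707) were lost. That of Slc3a2 was also lost without 3NC replicate 1 (0.0715) or 3 (0.101), without a filter on low values (0.052) and without the intensity trend (0.0575), and that of Phgdh without 3NC replicate 1 (0.0516).

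The ER genes did not move as 1 block in KD. Xbp1, the transcription factor of the IRE1 arm, was at 47.18, 45.82 and 46.32 RPKM in 3NC and at 32.44, 29.52 and 30.23 RPKM in KD, far apart (log2 fold change -0.58, standard error 0.05, adjusted p = 8.82e-08). Herpud1, a component of ER-associated degradation that carries both a CARE and an ERSE-II, was at 48.18, 46.47 and 50.25 RPKM in 3NC and at 30.4, 29.67 and 26.7 RPKM in KD (log2 fold change -0.72, adjusted p = 5.48e-08). It had the largest fall among ER genes. Hspa5, which encodes the major ER chaperone BiP, was at 1002.26, 1034.26 and 995.57 RPKM in 3NC and at 852.75, 859.15 and 915.99 RPKM in KD (log2 fold change -0.21, adjusted p = 0.00196). Its partner Hsp90b1, the ER form of HSP90, was at 932.83, 942.53 and 903.8 RPKM in 3NC and at 1119.3, 1148.95 and 1203.18 RPKM in KD (log2 fold change 0.32, adjusted p = 2.75e-05). So these abundant chaperones went in opposite directions, and in each the groups did not overlap. Calr, a lectin chaperone that binds calcium and the most abundant member in 3NC and KD, rose by a log2 fold change of 0.13 and the disulfide isomerase Pdia4 by 0.11. The cochaperones Dnajb9, Dnajc3 and Sdf2l1 fell by 0.30, 0.17 and 0.23 on the log2 scale, and Manf, a secreted ER stress protein, fell by 0.27, with KD at 80.4, 78.73 and 79.17 RPKM. Hyou1 (-0.08), Pdia6 (0.07), Creld2 (-0.06, with KD at 145.33, 149.65 and 136.54 RPKM) and Edem1 (-0.07) did not pass the test. The call of Calr was lost without 3NC replicate 1 (adjusted p = 0.0553) or KD replicate 2 (0.0514), and that of Pdia4 under quantile normalization (log2 fold change 0.017) and without 3NC replicate 2 (adjusted p = 0.0602), 3NC replicate 3 (0.0694) or KD replicate 1 (0.052).

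**Figure D2:**
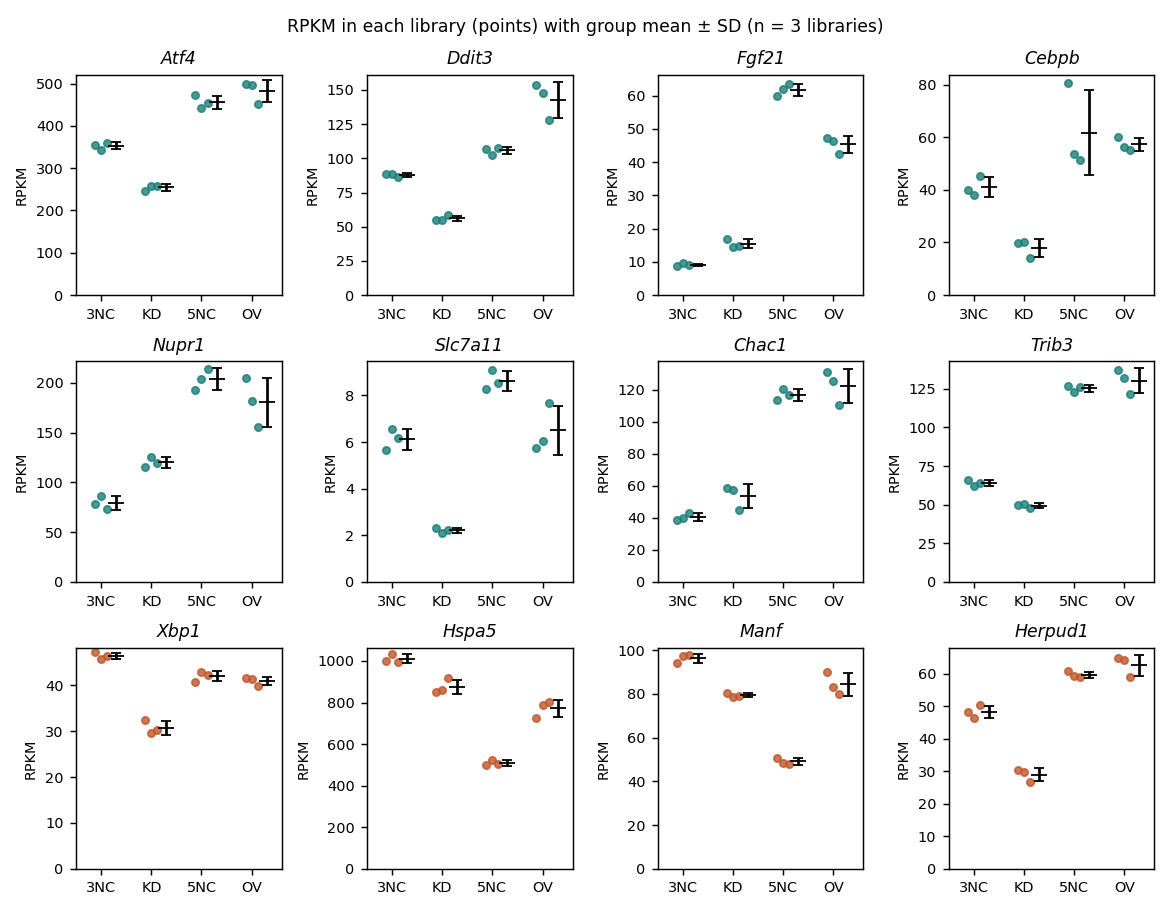
RPKM of 12 members in each library (points) for the 4 groups, with the group mean and SD of 3 libraries (black); green marks amino acid response genes and orange ER genes, and every axis starts at 0. Atf4, Ddit3, Cebpb, Slc7a11, Xbp1 and Herpud1 are lowest in KD, Fgf21, Chac1 and Nupr1 are lowest in 3NC, and Hspa5 and Manf are lowest in 5NC.

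In the overexpression cells it was mainly the ER genes that differed from the control. In OV against 5NC, 11 of 14 ER genes rose and 1 fell, where 8.07% of all genes tested rose and 13.9% fell. Of 22 amino acid response genes 2 rose and 4 fell, and 16 did not pass the test. The median log2 fold change was 0.40 over the ER genes, 0.01 over the amino acid response genes and -0.03 over all genes tested. In 11 ER genes every OV library lay above every 5NC library, as in 14.6% of all genes, and in 1 every OV library lay below, as in 22%. The numbers for amino acid response genes were 2 above and 5 below, and 15 overlapped. Over all genes 923 rose and 1595 fell, and under quantile normalization 933 rose and 948 fell, with 11 ER genes higher and 0 lower. These totals also turned on single libraries, at 1672 higher and 2509 lower without OV replicate 3 (14.6% and 21.9% of genes), 395 and 623 without OV replicate 1, and 391 and 583 without OV replicate 2 (3.42% and 5.1%). They were 628 and 1011 without 5NC replicate 1, 435 and 634 without 5NC replicate 2, and 491 and 811 without 5NC replicate 3, while the higher ER genes numbered 10 to 11 with each library left out. The stricter threshold was passed by 0 members in either direction, and by 0% of all genes.

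The folding factors and chaperones led the rise in OV. Manf was at 50.77, 48.44 and 48.06 RPKM in 5NC and at 90.18, 83.25 and 79.75 RPKM in OV (log2 fold change 0.77, standard error 0.05, adjusted p = 2.73e-07). Creld2, an ER protein with disulfide isomerase activity, was at 97.88, 96.68 and 96.95 RPKM in 5NC and at 167.73, 163.16 and 155.59 RPKM in OV (log2 fold change 0.73, adjusted p = 2.64e-07). Sdf2l1, a cochaperone of BiP, was at 60.42, 55.61 and 59.21 RPKM in 5NC and at 103.41, 91.76 and 88.3 RPKM in OV (log2 fold change 0.68, adjusted p = 3.71e-05). In these 3 genes every OV library was far above the 5NC libraries. Hspa5 was at 499.38, 523.47 and 502.69 RPKM in 5NC and at 724.95, 786.26 and 804.54 RPKM in OV (log2 fold change 0.60, standard error 0.05, adjusted p = 4.38e-06). Hsp90b1 was at 746.8, 745.96 and 747.81 RPKM in 5NC and at 888.12, 939.97 and 975.02 RPKM in OV (log2 fold change 0.32, adjusted p = 0.000587). Calr, the most abundant member, rose with them by a log2 fold change of 0.53. The ER isomerases Pdia6 and Pdia4 rose by 0.44 and 0.38, the nucleotide exchange factor Hyou1 by 0.43, and Dnajc3, which encodes the cochaperone p58IPK, by 0.23. Smaller changes in the mannosidase-like gene Edem1 (0.14, adjusted p = 0.0424) and the cochaperone gene Dnajb9 (-0.24, adjusted p = 0.0391) were just past the test. With each library left out in turn Edem1 lost its call in 10 of 12 fits (adjusted p up to 0.15) and Dnajb9 in 9 (up to 0.18), and the fit to the 6 libraries compared gave 0.089 and 0.0855. The 6 members with an ERSE all rose, with log2 fold changes between 0.23 and 0.73. Of the 6 ER members whose window held none, 3 rose and 1 fell, where 8.07% of all genes tested rose and 13.9% fell.

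Among the transcription factor genes Xbp1, Atf4 and Atf5 did not pass the test in OV, and Ddit3 rose. Xbp1 was at 40.77, 43.01 and 42.25 RPKM in 5NC and at 41.58, 41.45 and 39.93 RPKM in OV, overlapping (log2 fold change -0.03, adjusted p = 0.612). Atf4 was at 472.25, 441.63 and 454.58 RPKM in 5NC and at 498.6, 496.14 and 452.51 RPKM in OV. OV replicate 3 lay among the 5NC libraries (log2 fold change 0.08, adjusted p = 0.235), and without that library the log2 fold change was 0.13 (adjusted p = 0.0275). Atf5 was at 122.23, 124.9 and 131.25 RPKM in 5NC and at 136.02, 129.85 and 116.51 RPKM in OV (adjusted p = 0.903), and Herpud1 was at 60.7, 59.31 and 58.86 RPKM in 5NC and at 64.66, 64.29 and 58.92 RPKM in OV (adjusted p = 0.383). Ddit3 rose, from 106.9, 102.63 and 107.74 RPKM in 5NC to 153.34, 147.45 and 127.97 RPKM in OV (log2 fold change 0.43, adjusted p = 0.000366). Ppp1r15a was at 72.2, 76.21 and 77.06 RPKM in 5NC and at 93.41, 86.8 and 81.03 RPKM in OV, without overlap (log2 fold change 0.21, adjusted p = 0.0223). The adjusted p of Ppp1r15a was 0.0779 without 5NC replicate 1, 0.0588 without 5NC replicate 2, 0.106 without OV replicate 1 and 0.072 without OV replicate 2.

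The 4 amino acid response genes that fell in OV were Fgf21, Vldlr, Slc7a11 and Asns, and all have a CARE in the promoter window. Fgf21 was at 59.91, 62.07 and 63.47 RPKM in 5NC and at 47.11, 46.44 and 42.53 RPKM in OV (log2 fold change -0.44, adjusted p = 0.000607). Vldlr was at 19.27, 20.79 and 20.07 RPKM in 5NC and at 12.44, 14.04 and 15.7 RPKM in OV (log2 fold change -0.49, adjusted p = 0.000611). Slc7a11 was at 8.27, 9.11 and 8.54 RPKM in 5NC and at 5.76, 6.06 and 7.69 RPKM in OV (log2 fold change -0.37, adjusted p = 0.0109). The OV libraries of these 3 genes lay below all 5NC libraries, with OV replicate 3 of Slc7a11 nearest to them. The call of Slc7a11 was lost without 5NC replicate 2 (adjusted p = 0.0521), OV replicate 1 (0.0561) or OV replicate 2 (0.0552). Asns fell by 0.21 on the log2 scale (adjusted p = 0.0059). The other 3 members with a CARE (Chac1, Trib3 and Nupr1) did not pass the test. Nupr1 was at 192.67, 203.92 and 214.5 RPKM in 5NC and at 205.15, 181.44 and 155.64 RPKM in OV. Its groups overlapped, and the log2 fold change of -0.18 (adjusted p = 0.132) became -0.27 without OV replicate 1 (adjusted p = 0.0393) and -0.29 under quantile normalization (adjusted p = 0.0141). Cebpb overlapped too, at 80.58, 53.52 and 51.41 RPKM in 5NC and at 60.26, 56.39 and 55.3 RPKM in OV, with 5NC replicate 1 far above its group. Slc7a1 was at 73.21, 81.01 and 91.18 RPKM in OV against 86.63, 89.09 and 89.69 RPKM in 5NC (adjusted p = 0.186), and without OV replicate 3, its highest library, the log2 fold change was -0.20 (adjusted p = 0.00753). Slc7a5 was at 153.4, 149.87 and 148.88 RPKM in 5NC and at 137.35, 144.01 and 137.01 RPKM in OV (log2 fold change -0.11, adjusted p = 0.116). It lay below 5NC in every OV library and passed under quantile normalization (adjusted p = 0.0328) and without KD replicate 3 (0.0314).

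The effects of knockdown and overexpression were set against each other in the same fit, as the difference KD minus 3NC less OV minus 5NC, for which the 2 effects share no library. The difference passed the test in 20 amino acid response genes, 5 above 0 and 15 below, and in 12 ER genes, all below 0. Over all genes tested 31.2% were above 0 and 20.7% below. At the stricter threshold the difference of Fgf21 was above 0, against 1.46% of all genes, and those of Ddit3, Cebpb and Manf were below 0, against 1.41%. In 7 members both effects passed the test in opposite directions. The difference passed as well, which largely follows from the opposite calls. The share of all genes that met the same condition was not counted. Ddit3, Ppp1r15a, Hspa5, Manf, Sdf2l1 and Dnajc3 fell in KD and rose in OV, and Fgf21 rose in KD and fell in OV. The largest of these differences was that of Fgf21, 1.14 (standard error 0.09, adjusted p = 1.21e-07), followed by Ddit3 at -1.06 (adjusted p = 1.04e-07) and Manf at -1.04 (adjusted p = 1.93e-08). Slc7a11 fell in both arms, and by more in KD, with a difference of -0.78 (adjusted p = 0.000122). Hsp90b1 rose in both arms, and the difference was -0.0016 (standard error 0.06, adjusted p = 0.986). For Herpud1 and Xbp1 the fall in KD had no counterpart past the test in OV, and their differences were -0.79 (adjusted p = 1.43e-06) and -0.55 (adjusted p = 8.87e-06). The differences of Phgdh, Slc3a2, Chac1 and Sesn2 lost their calls in 10, 8, 7 and 7 of 12 fits that each left out 1 library, with adjusted p up to 0.104, and all 4 lost them without a filter on low values (0.0515 to 0.0896). Under quantile normalization 12 amino acid response genes were below 0, without Mthfd2 (adjusted p = 0.133), Phgdh (0.116) and Slc3a2 (0.211).

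**Figure D3:**
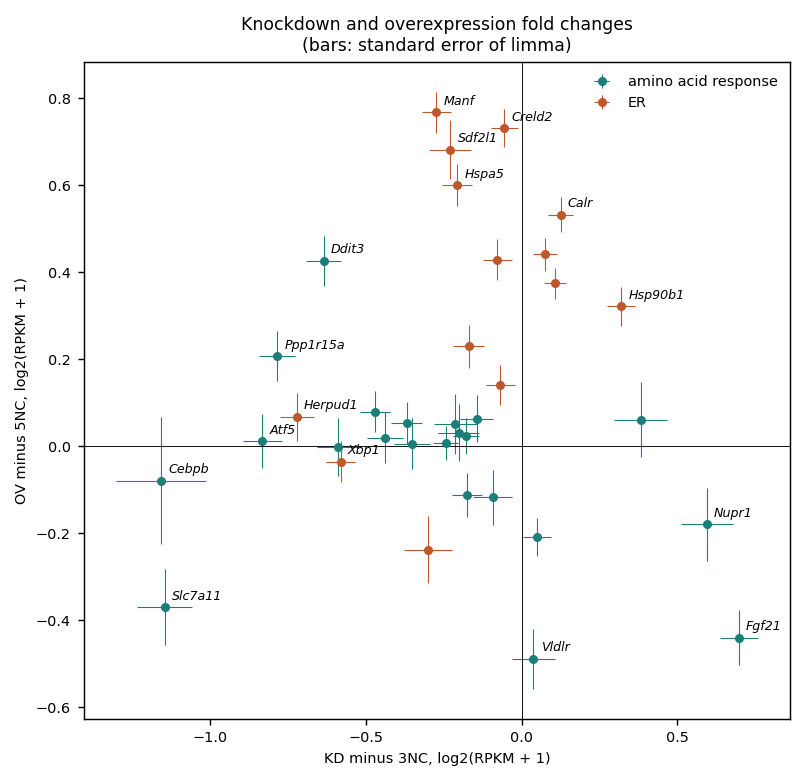
Log2 fold change of each member in KD against 3NC (horizontal) and in OV against 5NC (vertical), with standard errors from limma; green marks amino acid response genes and orange ER genes. Manf, Sdf2l1, Hspa5, Ddit3 and Ppp1r15a lie at the upper left, Fgf21 at the lower right, Hsp90b1 and Calr at the upper right, and Slc7a11 at the lower left.

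The vector controls differed from each other in every member but Psat1. In 5NC against 3NC, 21 of 22 amino acid response genes rose and 0 fell, where 31% of all genes tested rose and 25.6% fell. Of 14 ER genes 13 fell and 1 rose. The median log2 fold change was 0.63 over the amino acid response genes, -0.30 over the ER genes and 0.02 over all genes tested. In 21 amino acid response genes every 5NC library lay above every 3NC library, as in 37.5% of all genes, and in 13 ER genes every 5NC library lay below, as in 31.9%. The stricter threshold was passed by Fgf21, Chac1, Nupr1 and Slc7a1, all higher, where 1.56% of all genes passed it upwards and 1.05% downwards. The vector, the insert and the transduced population changed together between these groups, and their parts cannot be told apart.

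Fgf21 changed most of all members, from the 3NC values given above to 59.91, 62.07 and 63.47 RPKM in 5NC. The ratio of the group means was 6.81, with a log2 fold change of 2.64 (standard error 0.06, adjusted p = 2.16e-13). Its order over the groups was 5NC, OV, KD and 3NC, and no neighbouring groups overlapped. Chac1 was at 113.51, 120.57 and 116.53 RPKM in 5NC (log2 fold change 1.50, adjusted p = 1.53e-09) and at 131.04, 125.51 and 110.27 RPKM in OV. Nupr1 in 5NC had a log2 fold change of 1.35 over 3NC (adjusted p = 3.71e-09), and Slc7a1 one of 1.01 (adjusted p = 3.74e-09). In these genes the LV5 groups lay far above both LV3 groups. Gdf15 was at 84.22, 80.34 and 80.45 RPKM in 5NC and at 87.91, 76.99 and 80.17 RPKM in OV, and had a log2 fold change of 0.99 in 5NC against 3NC (adjusted p = 1.12e-08). Trib3 was at 127.05, 122.62 and 125.95 RPKM in 5NC and at 137.23, 131.85 and 121.36 RPKM in OV (log2 fold change 0.96 in 5NC against 3NC, adjusted p = 4.22e-10). Sesn2 was at 16.59, 18.04 and 17.02 RPKM in 5NC and at 18.03, 18.86 and 16.81 RPKM in OV (log2 fold change 0.91, adjusted p = 3.34e-08). Slc7a5 and Slc3a2, the chains of LAT1, rose by 0.97 and 0.86. Shmt2 was at 187.13, 180.06 and 184.52 RPKM in 5NC and at 199.69, 189.04 and 171.81 RPKM in OV (log2 fold change 0.72 in 5NC against 3NC, adjusted p = 8.75e-08). Mthfd2, Phgdh, Psph and Asns rose by log2 fold changes of 0.71, 0.54, 0.53 and 0.45. Psat1 alone did not pass the test (0.02, adjusted p = 0.67), and its values ran only from 244.98 to 255.23 RPKM across 3NC, 5NC and OV.

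Apart from Trib3 and Nupr1, the regulators rose by less than the class median in 5NC against 3NC. The log2 fold change was 0.37 for Atf4 (adjusted p = 9.92e-06), 0.40 for Atf5, 0.27 for Ddit3, 0.32 for Ppp1r15a and 0.55 for Cebpb, for which 5NC replicate 1 was the highest library. Vldlr and Slc7a11 rose by 0.43 and 0.44. The 7 members with a CARE in the window searched had a median log2 fold change of 0.96, between 0.43 and 2.64. The 14 members whose window held none had a median of 0.54, between 0.02 and 1.01. These ranges overlap.

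The chaperones went the other way in 5NC against 3NC. Hspa5 was at 995.57 to 1034.26 RPKM in 3NC and at 499.38 to 523.47 RPKM in 5NC, a log2 difference of -0.99 (standard error 0.05, adjusted p = 2.47e-10). Manf was at 93.85, 97.28 and 97.52 RPKM in 3NC, above its 5NC values (log2 fold change -0.96, adjusted p = 3.04e-10). Creld2 was at 148.96, 147.22 and 152.06 RPKM in 3NC (log2 fold change -0.62, adjusted p = 1.82e-08). The OV libraries of Creld2 lay above every 3NC library, and those of Hspa5 and Manf lay between 5NC and 3NC. Sdf2l1 was at 76.84, 71.98 and 76.18 RPKM in 3NC and at 65.88, 68.47 and 57.68 RPKM in KD, and had a log2 fold change of -0.36 in 5NC against 3NC. The remaining ER genes fell by 0.12 to 0.35 on the log2 scale, among them Calr (-0.12, which turned to 0.0082 with an adjusted p of 0.858 under quantile normalization, and whose adjusted p was 0.0621 without 3NC replicate 2 and 0.0516 without 5NC replicate 3) and Hsp90b1 (-0.31, which became -0.11 with an adjusted p of 0.1 there). Xbp1 fell by 0.14 (adjusted p = 0.0168), and the adjusted p was 0.0615 without 3NC replicate 1 and 0.0713 without 5NC replicate 1. Dnajb9 had an adjusted p of 0.0472, and it lost its call in 7 of 12 fits that each left out 1 library, with an adjusted p of up to 0.123. Herpud1 was the exception among ER genes, rising by 0.30 (adjusted p = 0.000302), and it was the only ER gene with the order OV, 5NC, 3NC and KD that 13 amino acid response genes also had.

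**Figure D4:**
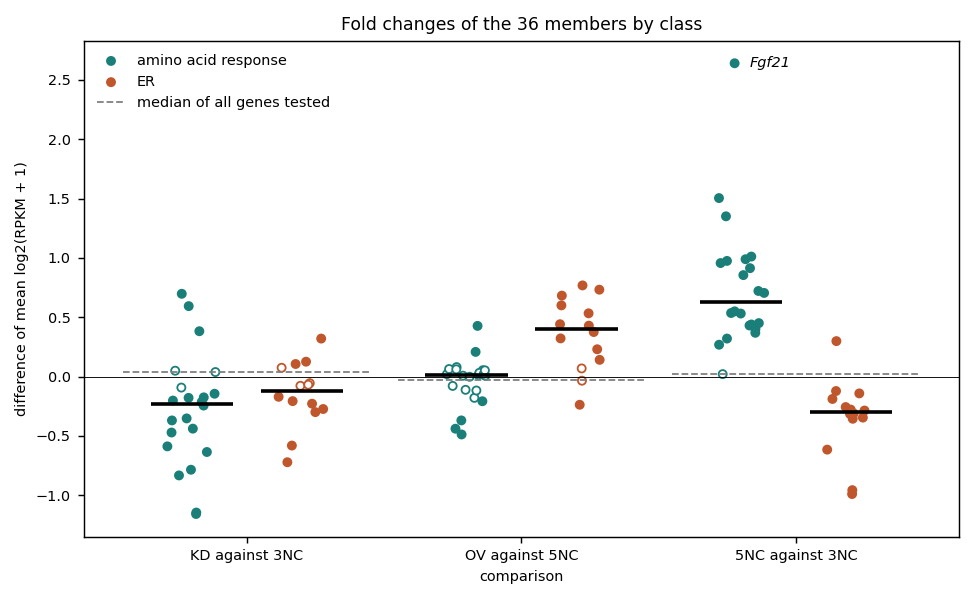
Log2 fold changes of the 36 members in 3 comparisons, by class; filled points passed the adjusted p of 0.05 and open points did not, black bars are class medians and dashed lines medians of all genes tested. The amino acid response median is -0.23, 0.01 and 0.63 and the ER median -0.12, 0.40 and -0.30 from left to right; in 5NC against 3NC the fall of Calr by 0.12 turned to 0.0082 under quantile normalization.

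KD was also set against 5NC, which shares its libraries with the comparisons above. All 22 amino acid response genes fell, where 31.4% of all genes fell and 34% rose, and in all 22 the KD libraries were below all 5NC libraries, as in 33.4% of genes. Of the 14 ER genes 10 rose and 2 fell, where the rise of Dnajc3 (0.14) was lost without KD replicate 3 (adjusted p = 0.0669) or 5NC replicate 3 (0.0877). In 10 ER genes every KD library lay above every 5NC library, as in 36% of genes. The median log2 fold change was -1.10 over the amino acid response genes, 0.26 over the ER genes and 0.02 over all genes. The stricter threshold was passed downwards by 12 amino acid response genes and by Herpud1 (-1.02), against 2.29% of all genes, and upwards by no member, against 1.26%. The 12 were Atf5 (-1.23), Cebpb (-1.71), Trib3 (-1.33), Ppp1r15a (-1.11), Shmt2 (-1.16), Slc7a11 (-1.58), Slc7a5 (-1.15), Slc7a1 (-1.10), Chac1 (-1.12), Sesn2 (-1.13), Fgf21 (-1.94) and Gdf15 (-1.58). Nupr1 (-0.76), Chac1 and Fgf21, which rose in KD against 3NC, were thus lower in KD when the LV5 control was used, while Hsp90b1 (0.63), Calr (0.25) and Pdia4 (0.39) were higher against both controls. Hspa5 showed the reverse, at 0.78 against 5NC and -0.21 against 3NC on the log2 scale, as did Manf with 0.68 and -0.27. For Nupr1, Chac1, Fgf21, Hspa5, Manf and Dnajc3 the direction in KD depended on the control taken. Sdf2l1, which fell against 3NC, had 0.13 against 5NC (adjusted p = 0.111) and was called higher there under quantile normalization (0.15, adjusted p = 0.0451) and without KD replicate 3 (0.20, adjusted p = 0.0134).

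Further genes of the pathway, listed by function, gave the setting of these changes, and their counts stand beside the shares of all genes tested that rose and fell, 31.9% and 23.5% in KD against 3NC, 8.07% and 13.9% in OV against 5NC, 31% and 25.6% in 5NC against 3NC, and 34% and 31.4% in KD against 5NC. The largest rise and fall of a list are by the log2(RPKM + 1) scale. Of 18 further ATF4 targets, 17 rose and 1 fell in 5NC against 3NC, 5 rose and 9 fell in KD against 3NC, 2 rose and 6 fell in OV against 5NC, and all 18 fell in KD against 5NC. In 5NC the stricter threshold was passed by Stc2 (log2 fold change 1.57), the neutral amino acid transporter Slc1a4 (1.53), the cystathionine lyase Cth (1.28), the glycine transporter Slc6a9 (1.12) and the mitochondrial transaminase Gpt2 (1.09). The 1 that fell there was Ddit4, an inhibitor of mTORC1 (-0.25). In KD against 3NC Ddit4 had the largest fall on the log2(RPKM + 1) scale (-1.09) and Slc1a4 the largest rise (0.81), while by the ratio of group means Stc2, a low gene, was 2.42-fold lower and Ddit4 2.25-fold. In OV the largest rise was that of the stress factor Atf3 (0.51) and the largest fall that of the folate enzyme Aldh1l2 (-0.40). In KD against 5NC the stricter threshold was passed by Stc2 (-2.24), the tRNA exportin Xpot (-1.46), Slc6a9 (-1.38), Cth (-1.34) and Aldh1l2 (-1.18).

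The cytosolic aminoacyl-tRNA synthetases, which charge tRNAs and of which many are ATF4 targets, were mostly lower in KD against 3NC, where 18 of 20 fell and 1 rose. The largest fall was that of Farsb (-0.82) and the 1 rise that of Qars (0.16). In 5NC against 3NC 11 rose, led by Sars (0.55), and 5 fell (25%, near the 25.6% of all genes), led by Hars (-0.61). In OV against 5NC 4 rose, led by Farsa (0.26), and Lars fell (-0.21). Of 17 that fell in KD against 5NC, Tars changed most (-0.91), and 3 rose, led by Qars (0.66). Of 8 genes of eIF2alpha, its kinases and phosphatase, 4 fell and 1 rose in KD against 3NC, led by Eif2s1 (-0.28) and by Eif2ak4, the GCN2 gene (0.23). In 5NC against 3NC 3 fell, led by Eif2ak3, the PERK gene (-0.33), and Ppp1r15b rose (0.40). In OV against 5NC 1 fell, Eif2ak2, the PKR gene (-0.24), and in KD against 5NC 4 fell and 2 rose, led by Ppp1r15b (-0.26) and Eif2ak4 (0.49).

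Among 18 further ER folding and degradation genes, 10 rose and 3 fell in KD against 3NC, a different split from the 3 and 7 of the ER members, though the difference between the lists was not tested. Edem2 rose most (0.59) and the oxidoreductase gene Ero1a fell most (-0.80). In OV against 5NC 7 rose, led by Derl3 (0.78), and 2 fell, led by Ero1a (-0.35), and in 5NC against 3NC 7 fell, led by Ero1a (-1.13, past the stricter threshold), and Txndc5 rose (0.44). In KD against 5NC 15 rose, led by Ero1b (0.80), and Txndc5 fell (-0.14). Of 5 genes of the stress sensors and their proteases, 2 fell (Atf6 the most, -0.28) and Mbtps1 rose (0.27) in KD against 3NC, and 3 fell (Mbtps2 the most, -0.50) and Atf6b rose (0.21) in OV against 5NC. In 5NC against 3NC 2 of them rose, led by Atf6b (0.53), and in KD against 5NC 3 fell, led by Atf6b (-0.75).

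The cytosolic heat shock genes, which respond to unfolded protein outside the ER, were mostly lower in KD and in 5NC than in 3NC, comparisons that share the 3NC libraries. In KD 7 of 9 fell, Hspa1b (-1.02) and Hsph1 (-1.01) past the stricter threshold, and Hspb1 rose (0.19). In 5NC 8 of 9 fell, led by Hspa1a (-0.92), and Hspb1 rose (0.45). In OV against 5NC 4 rose, led by Hspb1 (0.40), and Hspa1b fell (-0.50), and in KD against 5NC 2 rose, led by Hspa8 (0.48), and 3 fell, led by Hsph1 (-0.31). For the secreted factors and Vldlr, few partners were present. The FGF21 coreceptor Klb was at or below 0.05 RPKM and the VLDLR ligand Reln at or below 0.01 RPKM in every library, and Gfral was not used here. Fgfr1 was at 2.85 to 4.1 RPKM across the libraries. Lrp8, the sister receptor of Vldlr, was at 3.58, 3.38 and 3.34 RPKM in 3NC and at 0.53, 0.53 and 0.58 RPKM in 5NC, a log2 fold change of -1.52 on a scale that understates low genes, opposite to Vldlr itself. It was lower in KD than in 3NC as well (-0.92), and higher in KD than in 5NC (0.60).

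**Figure D5:**
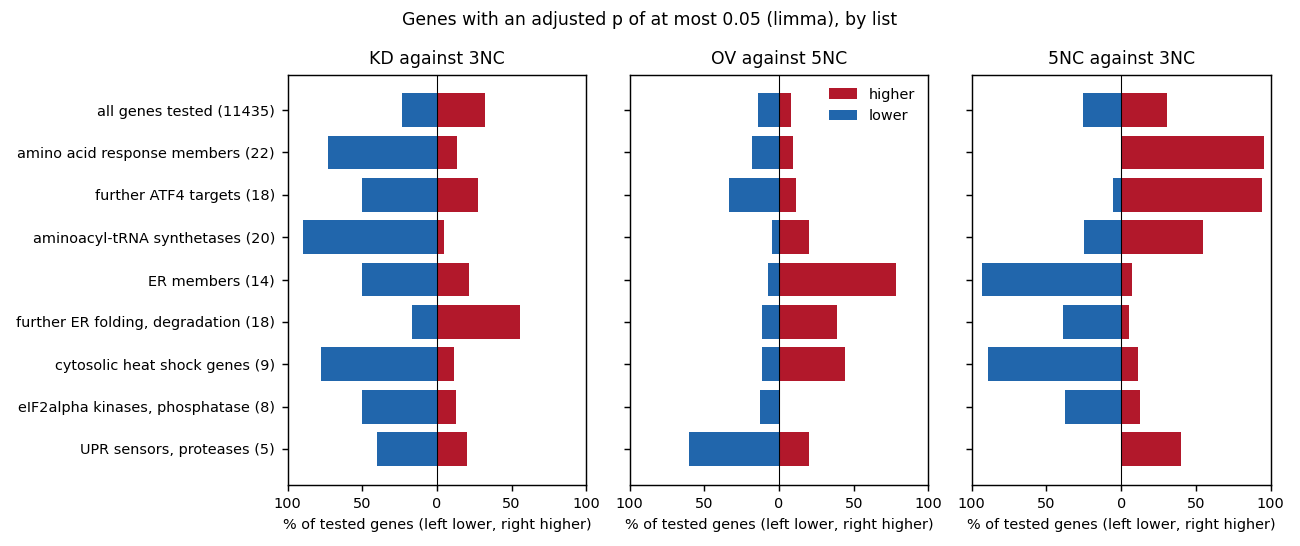
Share of the tested genes of each list that rose (red, to the right) or fell (blue, to the left) at an adjusted p of at most 0.05 (limma) in 3 comparisons, with the number tested in brackets. Against all genes tested (top bar) the amino acid response members, the further ATF4 targets and the ER members have in 5NC against 3NC 21, 17 and 1 higher and 0, 1 and 13 lower genes; Calr, 1 of the 13, turned to 0.0082 under quantile normalization.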

How the data were processed

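The authors deposited RPKM values of 17576 genes in 12 libraries of C18-4 cells. Per the labels and the study's methods, RNA was treated with DNase I, mRNA was enriched with oligo(dT) (the labels name total RNA), libraries were sequenced on an Illumina HiSeq instrument, reads were aligned to reference genes with SOAPaligner and read numbers became RPKM. The gene set and build are not given in the sources used here. RPKM keeps no read counts, so depth in reads is unknown, counting error cannot be given, and reads shared by related genes (Hspa1a and Hspa1b, for example) depend on the alignment. The supplementary heading for these cells names lncRNA8276, and the labels were followed.

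From these values log2(RPKM + 1) was computed, and the 11435 genes that reached 1 RPKM in 3 or more libraries were fitted with limma 3.58.1 in R 4.3.3, all 12 libraries in 1 model of the group with an intensity trend and no replicate block, and Benjamini-Hochberg adjustment. The fit was tested on simulated data. Promoters are RefSeq sequences of GRCm38.p6, matched by gene number. Figures were drawn with matplotlib 3.10.9.

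Every member is accounted for. Values in every library are given for Atf4, Ddit3, Fgf21, Hspa5 and Xbp1, for members past the stricter threshold in any comparison, and for the 3 members of each class with the largest called fold change in each comparison. Of the other lists the largest rise and fall and the genes past the stricter threshold are named. The members, lists and motifs were chosen with earlier results of these data known. Alternatives were another pseudocount, other filters, quantile normalization, a fit to 6 libraries, a replicate block, no trend, the stricter threshold and each library left out.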

Additional observations from a re-analysis of the deposited data

Results flagged for a closer look

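In 7 members the knockdown effect and the overexpression effect both passed the test in opposite directions (limma, Benjamini-Hochberg adjustment over all genes tested). The difference between them passed as well, which largely follows from the opposite calls. The share of all genes that met the same condition was not counted. The difference, KD minus 3NC less OV minus 5NC on the log2(RPKM + 1) scale, was 1.14 for Fgf21 (adjusted p = 1.21e-07), which rose in KD and fell in OV. It was below 0 for the 6 that fell in KD and rose in OV, at -1.06 for Ddit3 (adjusted p = 1.04e-07), -1.04 for Manf (1.93e-08), -0.99 for Ppp1r15a (2.52e-07), -0.91 for Sdf2l1 (2.5e-06), -0.81 for Hspa5 (2.88e-07) and -0.40 for Dnajc3 (0.000256). The OV call of Ppp1r15a was lost without 5NC replicate 1 or 2 or OV replicate 1 or 2, with adjusted p from 0.0588 to 0.106. The control groups themselves differ in these genes, with log2 fold changes in 5NC against 3NC of 2.64 for Fgf21, 0.27 for Ddit3, 0.32 for Ppp1r15a, -0.96 for Manf, -0.36 for Sdf2l1, -0.99 for Hspa5 and -0.32 for Dnajc3. In KD against 5NC Fgf21 fell and Hspa5, Manf and Dnajc3 rose, the reverse of KD against 3NC. The call of Dnajc3 against 5NC was lost without KD replicate 3 or 5NC replicate 3. The part of the vector in the differences of effects was not tested.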

How the results depend on the processing

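Of 3384 alternative values of single members, 3272 stayed on the side of the threshold given above, 103 were no longer called and 8 became called. Direction was compared only where a value was called in either fit. There 1 value turned its direction: Calr in 5NC against 3NC, 0.0082 under quantile normalization. The counts of members called moved by over 1.5 times in few settings. In OV against 5NC the count of 1 lower ER gene (Dnajb9) became 0 without a filter on low values, under quantile normalization and in the fit to 6 libraries, which has fewer samples, and ranged from 0 to 1 with each library left out. It was 0 without any 1 library of 3NC or 5NC, KD replicate 1, or OV replicate 1 or 2. The count of 2 higher amino acid response genes there ranged from 1 to 3 and was 1 without 5NC replicate 1 or 2 or OV replicate 1 or 2, through Ppp1r15a. At the stricter threshold, which leaves fewer genes by construction, KD against 3NC kept 0 amino acid response genes higher and 2 lower and 0 ER genes either way, and OV against 5NC kept 0 of each class. There 5NC against 3NC kept 4 amino acid response genes higher and 0 ER genes higher or lower, and KD against 5NC kept 12 amino acid response genes lower and 0 ER genes higher and 1 lower. The difference of effects kept 1 amino acid response gene above 0 and 2 below and 1 ER gene below. With each library left out in turn, the lower amino acid response genes in KD against 3NC numbered 13 to 16, the higher ER genes in OV against 5NC 10 to 11, and the lower ER genes in 5NC against 3NC 11 to 13.

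The correlation of deviations from the group mean between same-numbered libraries was between -0.18 and 0.18. Libraries of different number were not compared, so this does not show whether replicate numbers pair the libraries. With the replicate block the higher ER genes in OV against 5NC numbered 10 in place of 11, Edem1 losing its call (adjusted p = 0.0575), and 0 other member calls changed. Depth in reads is unknown, so the precision of low genes such as Slc7a11 and Sesn2 rests on 3 libraries per group only.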
